A study of Mus musculus with 8 samples.

Results

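The serpins are a family of proteins that mostly block serine proteases, and their genes were examined here in the retinas of germ-free (GF) mice on a normal diet (ND) or a high-fat diet (HFD). The members were chosen by name, as the gene symbols made of Serpin, a clade letter from a to i and a number, without those marked as pseudogenes (-ps), that had at least 1 count over the 8 libraries. By this rule 42 of the 64 serpin symbols listed were members, out of 34800 genes with a count. The other 22 stood at 0 in all 8 libraries, and 5 symbols marked -ps were left out by name. Members without that mark can still be pseudogenes. The GENCODE annotation types Serpina3h, which was tested, as a transcribed unprocessed pseudogene and Serpinb10, which was not, as a polymorphic pseudogene. The mice were adult male C57B1/6 animals raised without microbes. All were put on their diet at 7 weeks of age, kept on it for 8 weeks and killed at 15 weeks. Animals 9, 10, 11 and 12 formed the GF-ND group (n = 4). Animals 13, 15, 16 and 19 formed the GF-HFD group (n = 4), whose chow held 23% saturated fat. Each library held the RNA of 1 whole retina from 1 mouse, so the retina was a mixture of all its cell types, and no mouse with gut microbes is compared here.

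A serpin inhibits its target by offering a flexible loop to the protease. When the protease cuts that loop, the serpin snaps into a more stable shape and traps the protease in a covalent complex, so each inhibitor molecule is used once. Clades A, C, D, E, F and G hold mainly secreted proteins, some of which control clotting, fibrin breakdown or complement. Clade B holds mainly proteins that stay inside the cell and guard it against leaked proteases. Some members are not inhibitors: Serpinh1 (Hsp47) is a chaperone that folds collagen, and Serpinf1, pigment epithelium-derived factor (PEDF), is a secreted factor known for restraining vessel growth in the eye.

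The libraries held 39258006 to 44357518 counts. Among values from 1 to 12, even ones outnumbered odd ones by 1.91 to 2.36 times, so low counts often came in pairs. Levels are given as CPM, which are counts scaled to a common library size with TMM factors (a correction for library composition), as mean ± SD over 4 mice. Retinal RNA was present throughout, and 12 rod genes summed to 39940 to 86860 CPM. Several libraries stood apart. A list of 20 lens genes summed to 72430 CPM in GF-ND mouse 11, 12110 CPM in GF-HFD mouse 19 and 179 to 1631 CPM in the other 6. A list of 15 fibroblast and sclera genes summed to 274 CPM in the first of these, 306 and 398 CPM in GF-HFD mice 16 and 19, and 34.8 to 137 CPM in the other 5. In such bulk RNA, fewer cells of a type and less RNA per cell cannot be told apart.

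A handful of serpins made up most of the family's RNA. To compare genes of different length, levels were divided by the exon length of each gene in kilobases (CPM per kb). Serpini1, neuroserpin, which neurons secrete and which blocks tissue plasminogen activator, had the highest level per kb and made up 31.0% of the family's summed level. Serpinh1 followed with 16.9%, Serpina3n with 13.1%, Serping1 with 10.6% and Serpinb6a with 5.04%. These 5 genes held 76.6% of the summed level and the 10 highest held 93.8%.

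**Figure D1:**
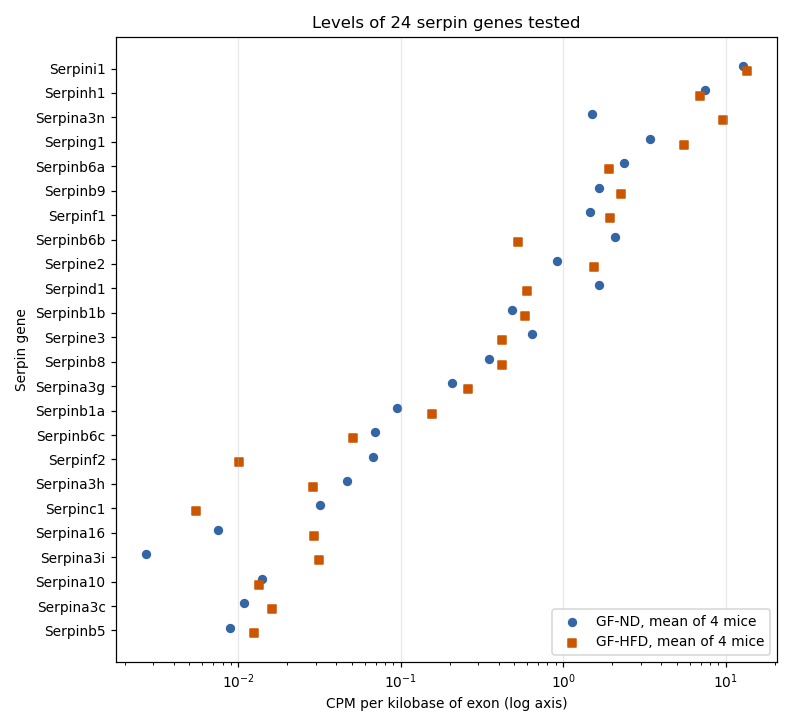
Mean CPM per kilobase of exon (x axis, log scale) in GF-ND (circles) and GF-HFD (squares) mice for 24 of the 25 serpin genes tested (y axis). Serpini1 lies at the top, and the markers of Serpina3n, Serpinc1, Serpinf2 and Serpina3i lie far apart.

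The members of clades A and B lie in gene clusters, most of whose genes were near silent in the retina, while those of the other clades lie singly or, for clade F, as a pair of neighbours. All 14 members of clade A lie on chromosome 12, between 103614786 and 104414329 (GRCm38), and 12 of them had fewer than 100 counts over the 8 libraries. Of the 18 members of clade B, 7 lie on chromosome 1 and 11 on chromosome 13, and 13 had fewer than 100 counts. As means over all mice of both groups, clade A held 14.0% of the family's summed level, nearly all from Serpina3n, and clade B 15.5%. The single genes of clades H (16.9%) and I (31.0%) each held more than either, and that of clade G held 10.6%. Of the 42 members, 17 had fewer than 10 counts in total and were not tested, and 13 of these had only even counts. The 25 others entered the test, among them 12 with a mean under 1 CPM in both groups.

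The question of the comparison was whether the diet changes retinal transcripts when gut microbes are absent. For the serpins, edgeR's quasi-likelihood test gave an adjusted p under 0.05 for 0 of 25, the smallest being an adjusted p = 0.649. Over all 26900 genes tested it called 0 as well (0%). In limma-voom, too, 0 of the 25 and 0 of all genes were called. DESeq2 called 0 of the serpins and 53 of all 26900 genes. It gave no adjusted p for Serpinc1, Serpinf2, Serpinb6b, Serpind1, Serpinb1a, Serpinb5, Serpinb6c, Serpina3c, Serpina3h, Serpina3i, Serpina10 and Serpina16. These serpins could therefore not be called by DESeq2. The methods set thresholds of p under 0.01, unadjusted, with a change of more than 1 on the log2 scale. Serpina3n alone passed them in this edgeR fit, as higher in GF-HFD retinas, against 0.457% of all genes tested (0.0855% as higher and 0.372% as lower). The study lists Serpinc1 and Serpinf2 as past these thresholds, both lower, and does not list Serpina3n. In the edgeR fit here Serpinc1 (unadjusted p = 0.0106) and Serpinf2 (unadjusted p = 0.0162) missed them. At an unadjusted p under 0.05 there were 4 serpins, against 7.38% of all genes. These were Serpina3n, Serpine2, Serpinc1 and Serpinf2.
The groups did not overlap in 2 of the 25 serpins, both lower in GF-HFD mice, and 4.83% of all genes tested kept the groups apart (2.54% as lower). A fitted level above that of GF-ND was found in 15 of the 25 and below it in 10, while 46.3% of all genes had a higher fitted level. The median log2 fold change was 0.27 for the serpins and -0.03 for all genes. It was -0.35 without GF-HFD mice 16 and 19, with 21 serpins tested. By clade, 5 of 7 tested in A (median 0.51), 5 of 8 in B (0.26) and 2 of 3 in E (0.77) had a higher fitted level.

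**Figure D2:**
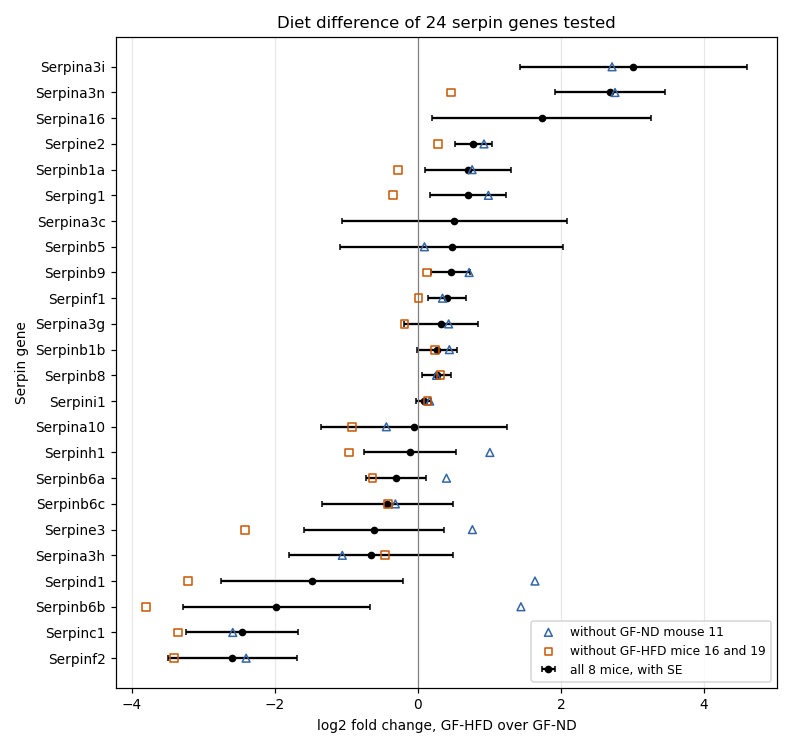
Fitted log2 fold change (x axis, above 0 where GF-HFD was higher) for 24 of the 25 serpin genes tested (y axis), with SE over all 8 mice (filled points), without GF-ND mouse 11 (triangles) and without GF-HFD mice 16 and 19 (squares). A gene has no open marker where too few counts were left to test it. Serpinc1 and Serpinf2 stay left of 0 in each, while Serpinb6b and Serpind1 move from -1.98 and -1.48 to 1.44 and 1.64 without mouse 11.

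Serpinc1 and Serpinf2, liver-made inhibitors that circulate in plasma, had lower counts in GF-HFD retinas, at levels close to the limit of detection. Serpinc1 is antithrombin, which blocks thrombin and factor Xa with heparan sulfate as its cofactor. It lies on chromosome 1 from 160978585 to 161005863 and had 10, 15, 8 and 12 counts in GF-ND mice 9, 10, 11 and 12. It had 0, 2, 1 and 5 counts in GF-HFD mice 13, 15, 16 and 19. Every GF-ND mouse lay above every GF-HFD mouse, with 45 counts in all against 8. Mean levels were 0.272 ± 0.0759 CPM on the normal diet and 0.0471 ± 0.0512 CPM on the high-fat diet (SD, n = 4 each). The log2 fold change was -2.46 (SE 0.78, adjusted p = 0.649 in edgeR), and the two-sided exact permutation test gave p = 0.0286, the smallest that 4 mice against 4 allow.
Serpinf2 is alpha-2-antiplasmin, which blocks plasmin and so protects fibrin. It lies on chromosome 11 from 75431732 to 75439591, beside Serpinf1, and had 7, 8, 9 and 2 counts in the GF-ND mice. It had 1, 0, 1 and 2 counts in the GF-HFD mice. GF-ND mouse 12 and GF-HFD mouse 19 shared a count of 2 and were apart only after scaling, at 0.0478 and 0.0473 CPM. In all there were 26 counts against 4, and the means were 0.157 ± 0.0752 and 0.0235 ± 0.0193 CPM (SD, n = 4 each). The log2 fold change was -2.59 (SE 0.90, adjusted p = 0.649 in edgeR), with an exact permutation p = 0.0286.
The study had selected both genes on these same libraries, so their direction here is not independent evidence. Their log2 fold changes stayed between -3.51 and -2.07 for Serpinc1 and between -3.41 and -2.22 for Serpinf2 over the 15 alternatives in which they could be tested. Serpinc1 passed the thresholds of the methods under 6 of these and Serpinf2 under 1. Hepatocyte markers were near 0 in both groups, where 11 genes summed to 0.691 to 1.03 CPM in GF-ND and 0.733 to 1.58 CPM in GF-HFD mice and Ahsg stood at 0. Exons of Serpinc1 overlap Zbtb37 on the other strand, which had 3903 to 5660 counts on the normal diet and 3993 to 4993 on the high-fat diet (log2 fold change -0.21, SE 0.12). The strand setting of the counting is not given in the sources used here, so reads of the 2 genes may not be told apart where they overlap.
The stretches before the start of transcription of these genes are shown, since both had lower counts. They run 5′ to 3′ over 250 bases up to the start, from RefSeq on GRCm38.p6, chr1:160978333-160978582 on the plus strand for Serpinc1 and chr11:75439502-75439751 on the minus strand for Serpinf2. In GENCODE, Serpinf2 starts at 75439591 on that strand, inside its window.
Serpinc1: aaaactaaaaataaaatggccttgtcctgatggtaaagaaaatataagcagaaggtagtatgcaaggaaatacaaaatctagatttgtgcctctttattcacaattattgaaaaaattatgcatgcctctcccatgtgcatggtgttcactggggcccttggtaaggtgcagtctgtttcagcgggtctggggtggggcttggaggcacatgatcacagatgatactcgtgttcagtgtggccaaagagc
Serpinf2: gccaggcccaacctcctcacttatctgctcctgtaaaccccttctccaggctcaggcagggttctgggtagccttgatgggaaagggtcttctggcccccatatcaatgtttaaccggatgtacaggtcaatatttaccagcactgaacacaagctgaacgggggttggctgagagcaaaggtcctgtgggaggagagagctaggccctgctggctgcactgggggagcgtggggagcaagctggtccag
Searched on both strands, neither window held TTCNNNGAA, the motif of STAT factors, the TATA box TATAAA, the GC box GGGCGG or GTTAAT, the core of the site of the liver factor HNF1. Of 32851 such windows, 7.02%, 12.4%, 32.7% and 6.43% held these letters. Among the 39 windows of the 34 serpins with one, 6 held the STAT motif, 9 the TATA box, 6 the GC box and 3 the HNF1 core.

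Serpinf1 (PEDF), the neighbour of Serpinf2, lies on chromosome 11 from 75409769 to 75422701 and was far more abundant. It was at 4.05, 3.18, 2.93 and 3.54 CPM in GF-ND mice 9 to 12 and at 3.22, 3.63, 7.26 and 4.11 CPM in the GF-HFD mice. Only GF-HFD mouse 16 stood out, and the groups overlapped. The log2 fold change was 0.41 (SE 0.27, adjusted p = 0.701 in edgeR), and 0.09 (SE 0.20) without mouse 16. The pigment epithelium is a known source of PEDF. Its 12 marker genes summed to 393 to 2122 CPM in GF-ND and 405 to 1292 CPM in GF-HFD mice. For mouse 13, with the sum of 405 CPM, the mean of the log2 values was 1.20, so the genes shared unevenly in that sum. Such sums do not show that this tissue was present in every library. The 1292 was in mouse 16 and the 2122 in GF-ND mouse 11, which had the lowest Serpinf1, and the part of the pigment epithelium in the Serpinf1 values was not tested. The PEDF receptor genes Pnpla2 (log2 fold change 0.14, SE 0.19), Plxdc1 (-0.02, SE 0.19) and Plxdc2 (-0.36, SE 0.38) are named outside the rule, after their values were seen.

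Serpina3n, a secreted inhibitor related to human antichymotrypsin and known as a marker of reactive astrocytes, had the largest fold change among the well-detected serpins. It lies on chromosome 12 from 104406729 to 104414329. It was at 3.30, 4.09, 3.53 and 1.48 CPM in GF-ND mice 9, 10, 11 and 12. It was at 2.29 and 6.22 CPM in GF-HFD mice 13 and 15 and at 43.6 and 27.9 CPM in mice 16 and 19. The excess was in mice 16 and 19, while mouse 13 lay within the GF-ND range and the groups overlapped. The means were 20.0 ± 19.3 and 3.10 ± 1.13 CPM (SD, n = 4 each), and the log2 fold change was 2.69 (SE 0.77, adjusted p = 0.649 in edgeR). The exact permutation test gave p = 0.143. Without mice 16 and 19 the log2 fold change was 0.46 (SE 0.48), and in limma-voom over all mice Serpina3n missed the thresholds (adjusted p = 0.688). Serpina3n kept to the thresholds of the methods without mouse 11, 13 or 15, and missed them without mouse 9, 10, 12, 16 or 19.
Mice 16 and 19 also had the highest fibroblast sums, 306 and 398 CPM, and 11 of the 15 fibroblast markers had a higher fitted level in GF-HFD mice. GF-ND mouse 11 had 274 CPM of these markers and 3.53 CPM of Serpina3n. The mean of the log2 values of the fibroblast list was 1.77 in mouse 11, 2.98 in mouse 16 and 3.21 in mouse 19. It was -0.06 to 1.15 in the other 5, so a few genes weighed heavily in the sum of mouse 11. None of the 15 stood at 0. A list of 9 ciliary body and iris genes was also highest in mice 16 and 19, with sums of 572 and 584 CPM against 377 to 521 CPM in the other 6, and 9 of 9 had a higher fitted level in GF-HFD mice. The 12 pigment epithelium markers summed to 1292 and 1065 CPM in mice 16 and 19, to 2122 CPM in mouse 11 and to 393 to 745 CPM in the other 5. The part of these cell types in the Serpina3n value was not tested. Gfap, the filament of reactive glia, did not follow Serpina3n, with 13.1 and 11.8 CPM in mice 16 and 19 and 7.06 to 21.4 CPM in GF-ND mice. The complement gene C4b was at 25.8 and 36.3 CPM in mice 16 and 19 and at 4.27 to 15.6 CPM in the other 6. Gfap and C4b belong to a fixed list of stress and STAT3 response genes and are named after their values were seen.
The other Serpina3 genes are close copies that may share reads with Serpina3n, so their counts are uncertain. Serpina3g had 72 counts on the normal and 93 on the high-fat diet (log2 fold change 0.32, SE 0.52, and -0.19, SE 0.68, without mice 16 and 19). Serpina3g is named after its values were seen. Serpina3i had 1 count in GF-ND mouse 9 and 4 and 8 counts in GF-HFD mice 15 and 16, with 0 in the other 5. Its log2 fold change of 3.01 (SE 1.59) rests on 13 counts.
Upstream of 3 of these copies, 250 bases up to the start are shown to compare a STAT motif. STAT3 is the factor through which many acute-phase genes are turned on. All are on the plus strand of chromosome 12 in GRCm38.p6, at chr12:104235897-104236146 for Serpina3g, chr12:104262872-104263121 for Serpina3i and chr12:104406458-104406707 for Serpina3n. Capitals mark the 9 bases that line up with the TTCNNNGAA match of Serpina3g.
Serpina3g: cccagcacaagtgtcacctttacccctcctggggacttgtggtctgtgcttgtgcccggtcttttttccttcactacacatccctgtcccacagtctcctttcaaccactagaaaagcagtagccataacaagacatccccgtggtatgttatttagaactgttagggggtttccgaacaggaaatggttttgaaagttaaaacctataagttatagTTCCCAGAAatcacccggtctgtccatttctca
Serpina3i: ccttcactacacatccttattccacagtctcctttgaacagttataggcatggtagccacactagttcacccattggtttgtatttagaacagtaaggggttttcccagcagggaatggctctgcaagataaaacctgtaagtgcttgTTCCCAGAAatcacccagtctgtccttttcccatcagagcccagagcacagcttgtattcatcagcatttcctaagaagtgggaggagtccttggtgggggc
Serpina3n: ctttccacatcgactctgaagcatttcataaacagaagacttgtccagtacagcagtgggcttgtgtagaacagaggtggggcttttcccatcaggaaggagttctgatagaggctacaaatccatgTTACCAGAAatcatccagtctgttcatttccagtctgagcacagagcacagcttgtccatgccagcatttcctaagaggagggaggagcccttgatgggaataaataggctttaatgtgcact
Counted from the RefSeq starts, the match of Serpina3g lies 33 to 25 bases before the start and that of Serpina3i 102 to 94. GENCODE puts the start of Serpina3g further along, at 104236245, so such distances depend on the annotation. The stretch of Serpina3n, 123 to 115 bases before its start, was found as the best match without gaps to 29 bases of Serpina3g, 25 of which were the same. It differs from the motif in Serpina3g by C3A, counted from the first of the 9 bases with the base of Serpina3g first, and so is not a match to these letters.

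**Figure D3:**
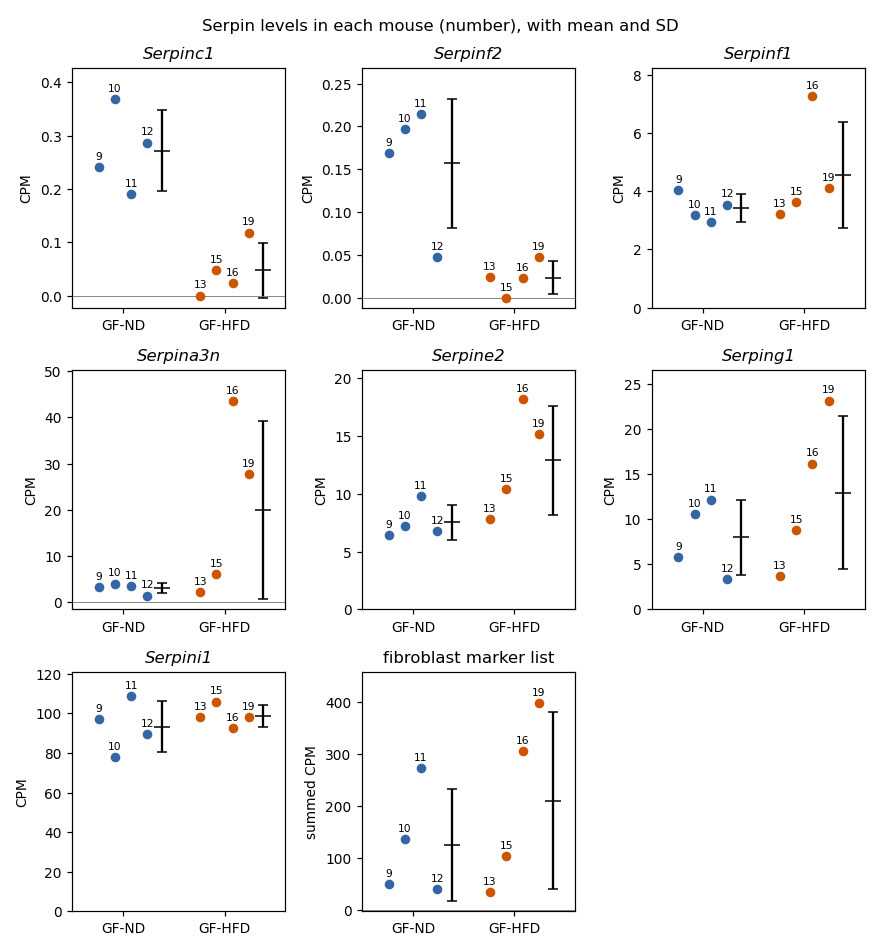
CPM (y axes) of 7 serpins and the summed CPM of the 15 fibroblast and sclera markers in each GF-ND and GF-HFD mouse (points with the mouse number), with mean and SD of 4 mice (bars). Serpinc1 and Serpinf2 are lower in GF-HFD mice, and Serpina3n, Serpine2 and Serping1 are highest in GF-HFD mice 16 and 19.

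Serpine2 and Serping1, both secreted, were highest in the same 2 mice. Serpine2, protease nexin-1, which blocks thrombin and plasminogen activators in the nervous system, lies on chromosome 1 from 79794197 to 79861180. It was at 6.41, 7.24, 9.77 and 6.75 CPM in the GF-ND mice and at 7.78, 10.4, 18.2 and 15.1 CPM in the GF-HFD mice. The groups overlapped only through GF-ND mouse 11 and GF-HFD mouse 13. Serpine2 had a log2 fold change of 0.77 (SE 0.26, adjusted p = 0.649 in edgeR), with an exact permutation p = 0.0571. It was 0.28 (SE 0.24) without mice 16 and 19.
Serping1, the inhibitor of the complement proteases C1r and C1s, lies on chromosome 2 from 84765387 to 84775444. It was at 5.81, 10.6, 12.2 and 3.33 CPM in the GF-ND mice and at 3.65, 8.83, 16.2 and 23.2 CPM in the GF-HFD mice, with wide overlap. The fitted difference was 0.70 on the log2 scale (SE 0.54, adjusted p = 0.740 in edgeR) and -0.35 (SE 0.54) without mice 16 and 19. Its targets C1ra (0.63, SE 0.59) and C1s1 (0.71, SE 0.74) had log2 fold changes of like size and error. C1s1 was at 3.03 CPM in GF-ND mouse 11, 0.362 to 0.550 CPM in the other GF-ND mice and 0.621 to 3.40 CPM in the GF-HFD mice. Without mouse 11 it passed the thresholds of the methods, where 1.34% of all genes did. C1s1 is named after its values were seen.
The fibroblast, ciliary body and pigment epithelium sums of mice 16 and 19 are given above, and the part of these cell types in Serpine2 and Serping1 was not tested.

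Serpinh1, Serpinb6a, Serpinb6b and Serpind1 had their highest level in GF-ND mouse 11, the library richest in lens RNA. Serpinh1 (Hsp47) lies on chromosome 7 from 99345376 to 99353239. It was at 9.76, 8.72, 47.8 and 6.77 CPM in GF-ND mice 9 to 12 and at 7.83, 10.9, 17.7 and 31.2 CPM in the GF-HFD mice. Mouse 11 alone set the GF-ND mean, and the log2 fold change was -0.11 (SE 0.64, adjusted p = 0.973 in edgeR) with it and 1.01 (SE 0.38, adjusted p = 0.151) without it.
Serpinb6a, an intracellular protease inhibitor, lies on chromosome 13 from 33917918 to 34002794. It was at 27.7 CPM in mouse 11, 7.55 to 8.25 CPM in mice 9, 10 and 12 and 7.38 to 12.5 CPM in the GF-HFD mice. Its log2 fold change was -0.31 (SE 0.42, adjusted p = 0.862) with mouse 11 and 0.40 (SE 0.18, adjusted p = 0.216) without it. Exons of Serpinb6a overlap Ripk1, Nqo2 and 1110046J04Rik on the other strand, so its counts are uncertain.
Serpinb6b, a copy of Serpinb6a in the same cluster on chromosome 13, from 32965209 to 32979067, had 731 counts in mouse 11 but 8 to 24 in mice 9, 10 and 12. It had 12 to 44 counts in GF-HFD mice 13, 15 and 16 and 130 in mouse 19. Its log2 fold change was -1.98 (SE 1.31, adjusted p = 0.704) and 1.44 (SE 0.76, adjusted p = 0.279) without mouse 11.
Serpind1, heparin cofactor II, which blocks thrombin when bound to dermatan sulfate, lies on chromosome 16 from 17331371 to 17343575 within Pi4ka. It had 560 counts in mouse 11, 13 to 24 in mice 9, 10 and 12, 10 to 23 in GF-HFD mice 13, 15 and 16 and 166 in mouse 19. Fitted with mouse 11, the log2 fold change was -1.48 (SE 1.27, adjusted p = 0.764) and 1.64 (SE 0.83, adjusted p = 0.265) without mouse 11. Without both mice 11 and 19 it was 0.06 (SE 0.50). Serpine3, named after its values were seen, had 108 counts in mouse 11 against 4 to 28 in mice 9, 10 and 12, and 71 in GF-HFD mouse 16 against 5 to 17 in the other GF-HFD mice. Its log2 fold change was -0.61 (SE 0.98) and 0.76 (SE 0.85) without mouse 11. Exons of Serpine3 overlap Ints6 on the other strand.
All 20 lens markers had a lower fitted level in GF-HFD mice, and none stood at 0. The mice with the most lens RNA, 11 and 19, were also the highest for Serpinh1, Serpinb6b and Serpind1. A list of 12 corneal and conjunctival genes was highest in the same mice, at 208.5 CPM in mouse 11 and 68.1 CPM in mouse 19 against 2.03 to 11.7 CPM in the other 6, and the pigment epithelium sum was highest in mouse 11. The part of these tissues in the serpin values was not tested beyond leaving out the 2 mice, which cannot tell the tissues apart.

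**Figure D4:**
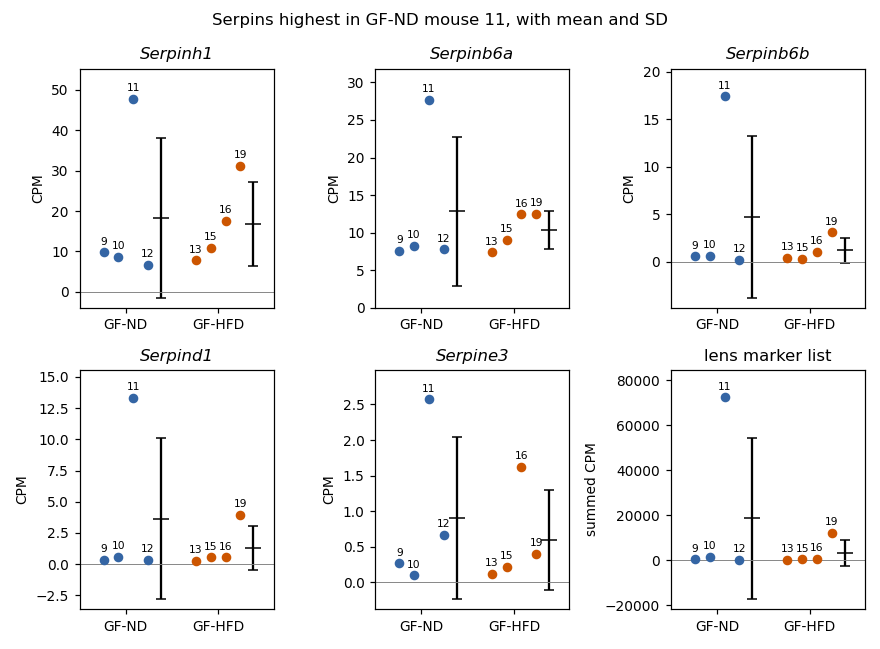
CPM (y axes) of 5 serpins and the summed CPM of the 20 lens markers in each mouse (points with the mouse number), with mean and SD of 4 mice (bars, which can reach below 0). GF-ND mouse 11 is the highest point in every panel, at 47.8 CPM for Serpinh1 and 72430 CPM for the lens list.

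Serpini1, the most abundant serpin, differed by less than the spread between mice. Its gene, on chromosome 3 from 75557547 to 75643495, stood at 97.3, 78.1, 109 and 89.4 CPM in GF-ND mice 9 to 12. In the GF-HFD mice it was at 98.0, 106, 92.6 and 98.2 CPM, within the GF-ND range. The log2 fold change was 0.08 (SE 0.10, adjusted p = 0.853 in edgeR), with values from -0.0015 to 0.17 over the alternatives. Plat, the gene of tissue plasminogen activator and the main target of neuroserpin, had means of 13.6 ± 1.39 CPM with the high-fat and 12.9 ± 2.79 CPM with the normal diet (SD, n = 4 each) and is named after its values were seen.
Serpinb9, which blocks granzyme B inside cells, lies on chromosome 13 from 33003250 to 33017957. It was at 5.47, 4.63, 8.60 and 4.40 CPM in the GF-ND mice and at 4.73, 7.84, 9.34 and 9.84 CPM in the GF-HFD mice, with overlap through mice 11 and 13. The log2 fold change was 0.46 (SE 0.28, adjusted p = 0.684 in edgeR), and 0.72 (SE 0.23, adjusted p = 0.108) without mouse 11. Granzyme B itself (Gzmb) had 0 counts in all libraries and is named after its values were seen.
The other serpins are given after their values were seen. Serpinb8 and Serpinb1b, intracellular inhibitors, averaged 2.02 and 1.13 CPM in GF-HFD and 1.68 and 0.934 CPM in GF-ND mice. Their log2 fold changes were 0.26 (SE 0.20) and 0.27 (SE 0.28). Serpinb1a, an inhibitor of neutrophil elastase, had 97 counts and a log2 fold change of 0.71 (SE 0.60), which was -0.27 (SE 0.75) without mice 16 and 19. Serpina10, Serpina16, Serpina3c, Serpina3h, Serpinb5 and Serpinb6c had 10 to 28 counts each, with log2 fold changes from -0.66 (Serpina3h) to 1.73 (Serpina16) and SE of 0.92 to 1.57. The Serpinb1, Serpinb6 and Serpinb9 copies may share reads, as the Serpina3 copies may. Of the 17 members that were not tested, Serpinb6e had 9 counts, Serpina3f 7 and Serpinb7, Serpinb9b and Serpinb11 6 each. Serpina9 had 4 counts and the remaining 11 had 1 or 2. These were Serpina1b, Serpina3a, Serpina3b, Serpina3m, Serpina6, Serpinb1c, Serpinb3a, Serpinb9c, Serpinb9f, Serpinb10 and Serpinb12.

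The proteases, receptors and substrates that serpins act with were compared in the same way. Over 7 fixed lists, 146 of 171 genes were tested, and edgeR called 0 at an adjusted p under 0.05, with 15 of the 146 at an unadjusted p under 0.05, against 7.38% of all genes. Only Col3a1, a fibrillar collagen of connective tissue, passed the thresholds of the methods. Groups did not overlap in 7 genes that were higher and 4 that were lower in GF-HFD mice. The lists and the thresholds are those of the same fit, so the shares of 0.457% and 4.83% over all genes apply here too. Fold changes and medians of these lists are over all 8 mice, with GF-ND mouse 11 included.
Of the clotting and fibrin genes, 15 of 24 tested were fitted higher in GF-HFD mice (median of the log2 fold changes 0.19) and 0 kept the groups apart. Vtn, vitronectin, an adhesive protein of plasma and matrix, averaged 798 ± 87.4 CPM with the high-fat and 636 ± 169 CPM with the normal diet (log2 fold change 0.33, SE 0.19). The thrombin receptor F2r was at -0.18 (SE 0.33) on the log2 scale. It had 41.3 CPM in GF-ND mouse 11, 13.25 to 18.47 CPM in the other GF-ND mice and 16.43 to 24.45 CPM in the GF-HFD mice. Thrombin itself (F2), a target of Serpinc1, had 102 counts over the 8 libraries and plasminogen (Plg), whose active form Serpinf2 blocks, had 13. F2 and Plg are named after their values were seen.
Of the complement proteases, 7 of 9 tested had a higher fitted level (median 0.61). The highest per kb were Cfi (log2 fold change 0.14, SE 0.21) and C1ra, and C2 and Cfb kept the groups apart, at 0.66 (SE 0.29) and 0.61 (SE 0.41). Of the intracellular, granule and epithelial proteases, 14 of 18 tested had a higher fitted level (median 0.15). The lysosomal cathepsin Ctsb was at 0.27 (SE 0.11), Ctsl at -0.22 (SE 0.56) and Ctss, a cathepsin of microglia, at 0.54 (SE 0.18), where the groups did not overlap. Ctsl had 521 CPM in GF-ND mouse 11, 92.5 to 114 CPM in the other GF-ND mice and 109.5 to 308 CPM in the GF-HFD mice. Ctss is named after its values were seen, as are C2 and Cfb.
Of the 20 clearance receptors and glycosaminoglycan partners, 12 had a higher fitted level (median 0.05). The receptor Vldlr was at 0.10 (SE 0.14) and the laminin-binding protein Rpsa at 0.05 (SE 0.22) on the log2 scale. Lrp1, the main receptor that clears serpin complexes, was at -0.19 (SE 0.17) and is named after its values were seen.
Of the 29 collagens and collagen-folding enzymes that work with Hsp47, 9 had a higher and 20 a lower fitted level (median -0.25). Col3a1 averaged 2.04 ± 1.76 CPM with the high-fat and 0.270 ± 0.167 CPM with the normal diet (SD, n = 4 each), with a log2 fold change of 2.90 (SE 0.77, adjusted p = 0.649 in edgeR). Col3a1 is also one of the 15 fibroblast markers, and it missed the thresholds without mouse 16 or 19. The disulfide isomerase P4hb was at 0.24 (SE 0.09), and the basement membrane collagen Col4a1 at -1.38 (SE 1.39).
Of the other protease inhibitors, 16 of 24 tested had a higher fitted level (median 0.11). Cystatin C (Cst3) was at 0.21 (SE 0.17) and Pebp1 at 0.14 (SE 0.16) on the log2 scale. Of the 22 stress and STAT3 response genes, 12 had a higher fitted level (median 0.15), 0 kept the groups apart and 0 had an unadjusted p under 0.05. Vim was at -0.76 (SE 0.74) and B2m at 0.54 (SE 0.25).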

How the data were processed

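Whole-retina RNA of 8 germ-free mice was measured, 1 library per mouse (4 GF-ND, 4 GF-HFD). Libraries were made with TruSeq RNA Sample Prep kits and sequenced as 100-bp read pairs. Per the labels and methods, the authors mapped reads to GRCm38 (STAR 2.4.2), assigned them to gene symbols (featureCounts, Subread 1.4.6-p1) with Gencode vM23, and deposited raw counts, with no scaling or filter. The libraries held 39258006 to 44357518 counts. Genes near the minimum of 10 counts carry a large counting error, and values from counts in pairs are less precise than their number alone would give.
Diets were compared by the quasi-likelihood test of edgeR 4.0.16 (R 4.3.3) after TMM scaling, keeping genes whose 8 counts summed to 10 or more. P-values were adjusted by Benjamini-Hochberg over every gene tested (log2 CPM with a prior count of 2). The SE given for edgeR fits was derived from the test, as the absolute log2 fold change divided by the square root of its F statistic. Single genes were also tested by a two-sided exact permutation test of log2 CPM over 70 arrangements. The mice have no pairing, and the spread is that between mice. Exon lengths and positions came from GENCODE vM21 (GRCm38), where all 42 members were found, and promoters from RefSeq (GRCm38.p6). The fit was tested on simulated data.
Alternatives were RLE factors, library totals, no filter, filterByExpr, 10 CPM in at least 4 libraries, DESeq2 1.42.0, limma-voom (limma 3.58.1), each mouse left out in turn, and the lens-rich (11 and 19) or fibroblast-rich mice (16 and 19) left out together. The members and gene lists were chosen with earlier results of these data known. Named were Serpina3n, Serpinc1, Serpinf1, Serpinf2 and Serpinh1, serpins past the thresholds of the methods, the 3 with the smallest p in each direction, the highest per kb in each clade and the 10 highest in all, those whose groups did not overlap and, in other lists, members past the thresholds and the 2 highest per kb. Other genes are marked as named after their values were seen, apart from Ahsg and the genes that overlap a member. The values of 1 serpin are not reported here, but it is included in the counts and medians.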

Additional observations from a re-analysis of the deposited data

Results flagged for a closer look

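In a group of 4 mice, a mouse was marked when its gap to the nearest other exceeded Dixon's 95% critical share of the group's range. Chance marks about 1 in 20 groups of normally spread values, but low counts need not follow this rate. A group with 0 in the other 3 mice is always marked, as for Serpina16, Serpina3c, Serpinb5 and Serpina3i. The 9 values marked over the 50 groups of the 25 serpins tested are therefore not set against that rate. Of these, 5 belonged to GF-ND mouse 11, where lens RNA was highest. Serpinh1 was at 47.8 CPM in that mouse (next highest GF-ND mouse 9.76), Serpinb6a at 27.7 (8.25), Serpinb6b at 17.4 (0.591), Serpind1 at 13.3 (0.591) and Serpina16 at 0.0477 CPM (0). In GF-HFD mouse 19, Serpind1 was at 3.93 CPM (next 0.546) and Serpina3c at 0.142 CPM (0). Serpinb5 was at 0.137 CPM in GF-HFD mouse 16 (0 in the other 3) and Serpina3i at 0.0241 CPM in GF-ND mouse 9 (0 in the other 3). The values of Serpina16, Serpina3c, Serpinb5 and Serpina3i stand for 1 to 6 counts. The high Serpina3n of GF-HFD mice 16 and 19 was not marked, since both mice were high.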

How the results depend on the processing

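Over the 17 alternatives, 0 serpins had an adjusted p under 0.05, and those without an adjusted p in DESeq2 could not be called there. Of all genes, 53 of 26900 were called in DESeq2, 421 of 26338 without GF-ND mouse 11 and 55 of 25720 without the lens-rich pair. The other alternatives called 0 of all genes. The number of serpins past the thresholds of the methods (1) became 2 with library totals, no filter, DESeq2 or without the lens-rich pair (Serpina3n higher and Serpinc1 lower in each), and 0 at 10 CPM in 4 libraries or without mice 16 and 19. In limma-voom and without GF-HFD mouse 19 the 1 serpin was Serpinc1, and without GF-ND mouse 12 it was Serpinf2. With 1 mouse left out the number ranged from 0 to 1, and it was 0 when mouse 9, 10 or 16 was left out. Of all genes tested, the thresholds were passed by 0.539% with library totals, 0.422% with no filter, 0.743% in DESeq2 and 0.45% in limma-voom. The share was 1.14% without the lens-rich pair, 0.201% without mice 16 and 19 and 0.0486% at 10 CPM. It was 0.247% to 1.34% with 1 mouse left out, the highest being without mouse 11. The number with groups apart (2) was 0 with filterByExpr and at 10 CPM, where Serpinc1 and Serpinf2 were no longer tested. It was 4 without the lens-rich pair, against 24.8% of all genes. With 1 mouse left out it was 2 to 6, against 6.52% to 20.2% of all genes. It was 3 without mouse 11, where the share was 20.2%. The 6 were found without GF-HFD mouse 13, where 8.67% of all genes kept the groups apart. Serpina3n, Serpine2 and Serpina3g were among those added there as higher. The median log2 fold change turned to -0.35 without mice 16 and 19. It was 0.10 to 0.44 with 1 mouse left out and 0.02 at 10 CPM, with 3 serpins tested. The number of other pathway genes past the thresholds (1) was 0 at 10 CPM, in limma-voom and without the lens-rich pair, and 0 to 3 with 1 mouse left out (3 without mouse 11, 2 without mouse 12 or 13, and 0 without GF-HFD mouse 16 or 19). Signs turned for Serpinh1 in limma-voom (0.19), without mouse 11 (1.01), 13 (0.12) or 15 (0.05) and without the lens-rich pair (0.53), for Serpinb6a (0.40 without mouse 11, 0.29 without the pair), Serpinb6b (1.44 and 0.35) and Serpind1 (1.64 and 0.059), for Serpine3 (0.76 and 0.91), for Serping1 (-0.35), Serpina3g (-0.19) and Serpinb1a (-0.27) without mice 16 and 19, for Serpina10 in limma-voom (0.35) and without mouse 9 (0.49), 10 (0.50) or 15 (0.34), for Serpina3c (-0.28) and Serpinb5 (-0.25) in limma-voom, and for Serpini1 without mouse 10 (-0.0015). With 1 mouse left out, log2 fold changes ran from -0.59 to 1.01 for Serpinh1, -0.49 to 0.40 for Serpinb6a, -3.06 to 1.44 for Serpinb6b, -3.05 to 1.64 for Serpind1 and -0.0015 to 0.17 for Serpini1. The causes of these changes were not tested. Serpina3n, Serpinb9, Serpinf1, Serpine2, Serpinf2, Serpinc1 and Serpina3i kept their sign wherever they were tested. No paired analysis was possible because the 2 groups share no mouse number. Depth limits the 12 serpins with a mean under 1 CPM in both groups most.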
